A study of Mus musculus with 8 samples.

Results

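Regulatory T cells (Treg) were the 2866 CD8-negative T cells of the pancreas selected on their UMIs of 3 genes, having at least 1 unique molecular identifier (UMI, a tag on each captured transcript) of Foxp3, or at least 1 UMI each of Il2ra and Ikzf2. They came from 80470 cell barcodes in 8 single-cell libraries of NOD mice, in which autoimmune diabetes arises spontaneously. A minimum of 500 genes per barcode and a limit of 10% on mitochondrial UMIs left 77486. T cells had at least 2 UMIs over Cd3d, Cd3e, Cd3g, Trac, Trbc1 and Trbc2 and at most 1 UMI over 6 B cell and myeloid genes (Cd79a, Cd79b, Ms4a1, Lyz2, Csf1r, C1qa), which left 76819. Of these, 48026 had no Cd8a or Cd8b1 UMI. Treg were 3.73% of T cells and 5.97% of CD8-negative T cells. They were compared with the 27861 other CD4 T cells, which had at least 1 Cd4 UMI and did not meet the rule. By library, the Treg numbered 205 in active diabetes, 343 at onset, 296, 458 and 289 with vehicle on days 2, 3 and 4, and 556, 333 and 386 with PPCA on the same days.

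The 8 libraries held T cells sorted as CD45+ CD3+ TCRβ+ from the pancreas of mice labelled as female NOD with newly arisen spontaneous diabetes. The mice were 3 to 4 months old by the labels and up to 5 months by the protocol. The active library came from mice above 600 mg/dl blood glucose and the onset library from mice at 250 mg/dl, both harvested on day 1 without treatment. The other 6 came from mice that entered at 200 to 300 mg/dl and were given daily either vehicle (30% ethanol, 5% Tween 20, 65% PEG300) or PPCA. PPCA was nutlin-3 at 50 mg/kg, an inhibitor of MDM2 and so an activator of p53, with MK-1775 at 25 mg/kg, an inhibitor of the cell cycle kinase WEE1. There was 1 vehicle and 1 PPCA library for each of days 2, 3 and 4, so each of these groups held 3 libraries and active and onset 1 each. How these days match the 1 to 3 days of dosing in the series description was not stated. The labels do not say how many mice a library held, and p-values here measure only the spread between libraries. The design asks what the drug pair does to T cells in the diabetic pancreas, and the comparisons below ask it of the Treg.

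Treg are CD4 T cells that restrain other T cells. Their programme is set by the transcription factor FOXP3, which works with the Ikaros family members Helios (Ikzf2) and Eos (Ikzf4). They depend on interleukin 2, which they take up through a receptor that includes CD25 (Il2ra), and they suppress through surface molecules such as CTLA-4, through the conversion of ATP to adenosine and through cytokines such as IL-10 and TGF-β. In NOD mice, loss of Treg or of their response to interleukin 2 accelerates diabetes. Treg exist in a resting form, which resembles naive T cells and recirculates through lymphoid organs, and in activated forms that enter inflamed tissue.

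Some libraries stood apart from their labels. Every library is labelled female, yet 4 carried Y-linked transcripts, at 200.0 to 290.6 counts per 1000000 UMIs (CPM), and Xist at no more than 0.893 CPM. They were vehicle on day 2, PPCA on day 4 and both of day 3. The other 4 carried Y-linked transcripts at no more than 0.249 CPM and Xist at 406.7 to 565.8 CPM. Only on day 3 did the vehicle and PPCA libraries match in this respect. Treg had a median depth of 3141 to 5072 UMIs per cell across libraries, and other CD4 T cells of 3902.5 to 6208. Treg of PPCA libraries were shallower: the mean of the library medians was 3384 UMIs, against 4218 with vehicle. All Treg of a library together held 1214232 to 2414495 UMIs. Pairs of libraries shared 10 to 38 kept barcodes, at most 0.447% of the smaller library, and at most 1 barcode that was a Treg in both.

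The label was checked against markers that the rule did not use. The T cells met it: Tnfrsf4 (OX40), Izumo1r (folate receptor 4) and Nrp1 (neuropilin 1), 3 surface markers of Treg, were all higher than in other CD4 T cells in all 8 libraries. After each cell was thinned to 2000 UMIs, so that depth was equal, with shallower cells left out (5 to 37 Treg and 9 to 84 other CD4 T cells of a library), Tnfrsf4 was found in a median of 33.0% of Treg against 3.88% of other CD4 T cells. Izumo1r was found in 52.9% against 8.30%, and Nrp1 in 21.1% against 2.04%. The genes of the rule itself are given as a description, with no test. After thinning, CD8-negative T cells with a Foxp3 UMI had Ikzf2 in 45.6% to 63.9% of cells, and CD4 T cells without one in 1.65% to 6.30%. For Il2ra the shares were 17.6% to 31.6% and 0.645% to 1.74%. In the summed UMIs of Treg, Foxp3 stood at 287 to 397 CPM, Ikzf2 at 552 to 831 CPM and Il2ra at 160 to 293 CPM.

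The rule has 2 ways in. The Foxp3 way brought 2328 cells, or 81.2%, of which 1255 had a single Foxp3 UMI and 1073 had 2 or more. The way through Il2ra and Ikzf2 without Foxp3 brought 538 cells, or 13.9% to 23.2% of the Treg of a library. Just outside the rule were 1261 CD4 T cells with Ikzf2 but neither Foxp3 nor Il2ra, and 334 with Il2ra but neither of the others. The following values describe these edges and were not tested. Ctla4, which encodes the inhibitory receptor CTLA-4, averaged 418 CPM over the 8 libraries in cells with at least 2 Foxp3 UMIs, 330 CPM with 1, and 261 CPM in the Il2ra and Ikzf2 cells. Just outside, it averaged 251 CPM in cells with Ikzf2 alone and 131 CPM in cells with Il2ra alone, and in all other CD4 T cells 39.6 CPM. Its level thus continued past the edge of the rule, and cells with Ikzf2 alone stood close to those that came in through Il2ra and Ikzf2. Gpr83, a receptor gene of Treg, separated the edge more sharply, with 80.9 to 136 CPM inside the rule and 26.5 and 30.8 CPM just outside. Lef1, a transcription factor of naive T cells, was highest in other CD4 T cells at 847 CPM, with 368 and 401 CPM just outside the rule. Inside the rule it was lowest in the Il2ra and Ikzf2 cells, at 211 CPM, and reached 396 CPM in Foxp3 cells. Its order inside the rule was thus not the reverse of that of Ctla4.

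**Figure D1:**
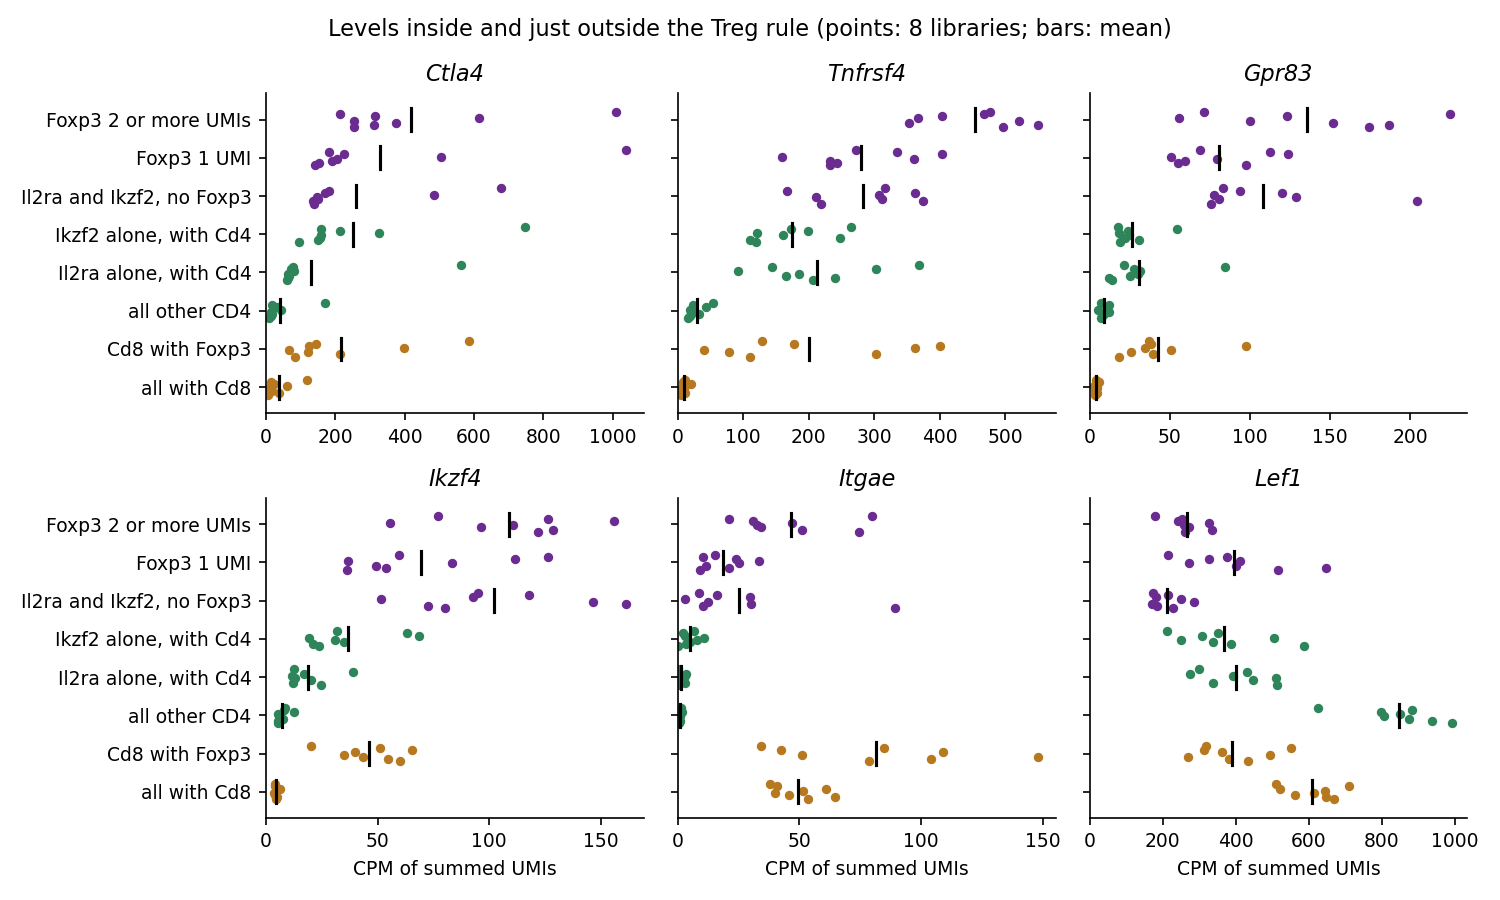
Levels of 6 genes in classes of cells inside and just outside the rule, in CPM of the UMIs summed per library. Each point is 1 of the 8 libraries and each bar their mean. Ctla4 averaged 418 CPM in cells with at least 2 Foxp3 UMIs and 39.6 CPM in other CD4 T cells, while Lef1 was highest in other CD4 T cells (847 CPM).

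The cells that came in without Foxp3 held more of some transcripts of γδ, innate-like and NK cells. The sort for CD3 and TCRβ would remove γδ T cells, NK cells and innate lymphoid cells, and these cells held 5508 UMIs of Trbc2 and 1824 of Trac, the constant regions of the αβ receptor. Tcrg-C1, a constant region of the γ chain of γδ T cells, averaged 19.7 CPM in the Il2ra and Ikzf2 cells and 0.0655 CPM in the Foxp3 cells. Zbtb16, the transcription factor PLZF of innate-like T cells, averaged 14.1 CPM and 0 CPM. The 6 γδ T cell genes measured summed to 80.6 to 228 CPM in the Il2ra and Ikzf2 cells of a library, to 1.76 to 22.2 CPM in the Foxp3 cells and to 7.93 to 18.9 CPM in other CD4 T cells. Trdc, the constant region of the δ chain, went the other way, with a mean of 4.38 CPM in the Il2ra and Ikzf2 cells, 7.53 CPM in the Foxp3 cells and 8.69 CPM in other CD4 T cells, and the δ segment Trdv4 was at 0 in the Il2ra and Ikzf2 cells. A Cd4 UMI was found in 50.3% of all Treg and in 61.7% of the other CD8-negative T cells as a whole. The 8 genes of NK and innate lymphoid cells summed to 14.4 to 173 CPM in the Il2ra and Ikzf2 cells, highest in the onset (173 CPM) and active (134 CPM) libraries, and to 4.37 to 31.99 CPM in the Foxp3 cells. Where a call on a gene named below was lost when only Foxp3 cells were taken as Treg, this is stated.

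Treg made up a varying share of the CD4 T cells of a library, where CD4 T cells are the Treg and the other CD4 T cells. The share was 6.75% in the active library (exact Clopper-Pearson 95% interval 5.89% to 7.70%) and 6.46% at onset (5.81% to 7.16%). With vehicle it was 9.08% on day 2 (8.12% to 10.1%), 11.6% on day 3 (10.6% to 12.6%) and 5.65% on day 4 (5.03% to 6.31%). With PPCA it was 15.3% on day 2 (14.2% to 16.5%), 11.5% on day 3 (10.3% to 12.7%) and 11.02% on day 4 (10.0% to 12.1%). The PPCA share was thus higher on days 2 and 4, with intervals that did not overlap, and close to vehicle on day 3, with overlapping intervals, the only day on which the libraries matched in Y-linked transcripts. These intervals hold counting error alone. Treg could enter without a Cd4 UMI, and other CD4 T cells could not. Of the other CD8-negative T cells, 71.6%, 63.4% and 59.2% had one with vehicle on days 2, 3 and 4, and 59.0%, 62.3% and 44.4% with PPCA. Over all CD8-negative T cells the differences by day, PPCA minus vehicle, were 2.98, -0.191 and 1.80 points. The part of Cd4 detection in the share difference was not tested. Over libraries, the mean was 12.6% ± 2.37 with PPCA and 8.76% ± 2.97 with vehicle (SD, n = 3 each), a difference of 3.84 percentage points. By day the differences were 6.24, -0.0999 and 5.38 points. The two-sided exact sign-flip test over days gave p = 0.5, where 3 days cannot go below 0.25. An exact permutation test of all 6 libraries gave p = 0.3, where the smallest possible value is 0.1. The difference did not pass, and 3 libraries against 3 could not have passed at 0.05.

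The size of that difference moved with the definition. With all T cells as the denominator it was 0.722 points, with CD8-negative T cells 1.53 points, and with Treg required to have a Cd4 UMI 1.41 points. Restricted to cells with at least 2 Foxp3 UMIs, as a share of CD8-negative T cells, it was -0.0461 points. The following values bear on the lowest share that can be read. CD8-gated T cells, which should hold few Treg, met the same conditions on Foxp3, Il2ra and Ikzf2 in 1.21% to 2.83% of cells, against 3.42% to 9.65% of CD8-negative T cells. Median depths of the CD8-gated cells were 4374 to 7252 UMIs. By day their shares were 1.84%, 1.43% and 1.21% with vehicle and 2.83%, 1.69% and 1.39% with PPCA. On a Foxp3 UMI alone, day 3 went the other way (1.38% with vehicle and 1.33% with PPCA). The part of this background in the share difference was not tested. For at least 2 Foxp3 UMIs the shares were 0.318% to 0.595% of CD8-gated and 1.19% to 3.44% of CD8-negative T cells. The active and onset libraries differed by 0.292 points, and by -0.546 points with all T cells as the denominator. No test was possible with 1 library each.

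**Figure D2:**
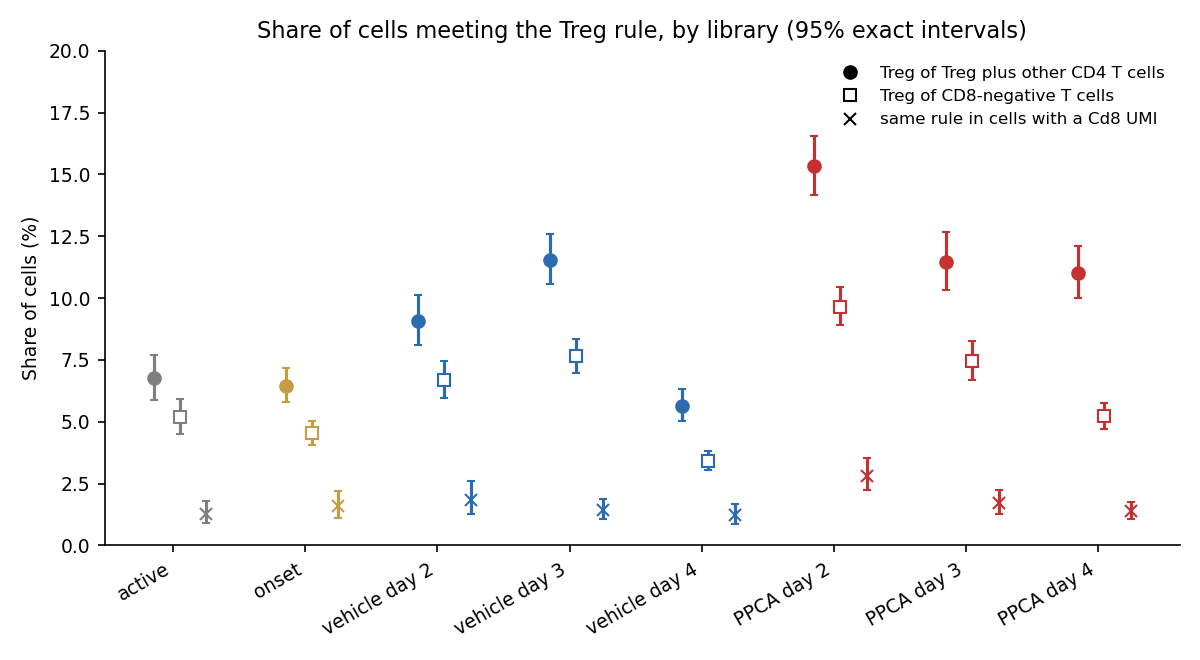
Share of cells that met the Treg rule in each library, in percent, with exact 95% intervals that cover counting error. The PPCA libraries of days 2 and 4 (15.3% and 11.02%) lay above the vehicle libraries of those days (9.08% and 5.65%), the day 3 pair overlapped (11.5% and 11.6%), and CD8-gated cells lay between 1.21% and 2.83%.

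Treg differed from other CD4 T cells of the same libraries by their inhibitory and costimulatory receptors, by the Eos and IL-2 receptor β genes and by 13 of 20 homing genes, which were higher, and by genes of naive T cells, which were lower. Counts were summed per library and class and compared within libraries with the quasi-likelihood test of edgeR, with Benjamini-Hochberg adjustment at 0.05. Of 12130 genes tested, 4862 differed (40.1% of those tested). Of these 2337 were higher in Treg (19.3%) and 2525 lower (20.8%). Foxp3, Ikzf2 and Il2ra chose the cells and were not tested. Reading expression from UMIs other than those that set the membership left 3073 genes. Among the 5536 genes averaging at least 20 CPM, 622 passed and were higher in each of the 8 libraries, and 1258 passed and were lower in each. Genes below are given by their role, and log2 values are Treg over other CD4 T cells.

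All 20 listed genes of Treg identity and suppression were higher, with a median log2 difference of 3.05, against -0.03 for all genes tested. Nrp1, Tnfrsf4 and Izumo1r on this list also served to check the label. Tnfrsf4, which carries costimulation from OX40 ligand, had 274 CPM in the lowest, 355 in the median and 411 in the highest Treg sum, and 15.4, 23.7 and 54.4 CPM in other CD4 T cells. The 2 ranges did not overlap, and the difference was 3.46 ± 0.12 (log2 ± SE, adjusted p = 1.57e-19 by edgeR). Ctla4, which takes B7 ligands away from antigen-presenting cells, had 192, 232 and 946 CPM in Treg and 7.44, 16.6 and 172 CPM in other CD4 T cells, a difference of 3.26 ± 0.13. Its highest values were both from the PPCA library of day 4, and within that library Treg were still higher. Ikzf4, which encodes the FOXP3 partner Eos, had 47.5, 86.2 and 125 CPM in Treg against 5.31, 6.56 and 12.4 CPM (3.43 ± 0.10). Gpr83 was higher by 3.38 ± 0.10 and Nrp1 by 2.97 ± 0.12.

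Genes of the suppressive machinery showed the same direction at very different levels. Nt5e (CD73), which makes adenosine, had a median of 80.6 CPM in Treg and 10.0 CPM in other CD4 T cells, a log2 difference of 2.65. Entpd1 (CD39), which feeds it by breaking down ATP, had 21.1 and 2.36 CPM, a difference of 2.52. Lrrc32, which encodes GARP, the anchor of latent TGF-β on Treg, was lower in level (13.7 to 30.1 CPM) but close to absent in other CD4 T cells (0.0753 to 1.45 CPM), and its log2 difference of 5.27 ± 0.26 was the highest of the list. Itgb8, an integrin chain that releases active TGF-β, differed by 3.92, whereas Tgfb1 itself differed by only 0.27, with a median of 125 CPM in Treg and 86.5 CPM in other CD4 T cells. The message for the cytokine was thus shared by both classes, and the messages for its anchor and activator were mainly in Treg. Il10 was scarce in most libraries, with a median of 6.73 CPM in Treg and 0.535 CPM in other CD4 T cells (3.24 ± 0.34).

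Most listed genes around interleukin 2 were higher in Treg, but not all, at the receptor and below it. Il2rb, the signalling chain of its receptor, was at 203 to 297 CPM in Treg and 14.7 to 41.4 CPM in other CD4 T cells, a log2 difference of 3.07. The shared receptor chain Il2rg (-0.14) and the receptor kinase Jak1 (-0.23) were slightly lower, and the partner kinase Jak3 (0.45) was higher. Of the SOCS family of feedback inhibitors Socs2 (3.03), Cish (1.68) and Socs1 (0.42) were higher and Socs3 lower (-0.31). Of the survival kinases Pim1 was higher (0.89) and Pim2 lower (-0.36). In all, 9 of the 14 listed IL-2 and STAT5 genes were higher and 4 lower, with a median of 0.32. Bcl2, a survival gene of this pathway, did not pass (0.08, adjusted p = 0.298 by edgeR). Of the other BCL2 family and death receptor genes, Bcl2l1 (BCL-XL, 1.07), Bcl2a1b (1.58), Fas (0.997) and the BH3-only gene Pmaip1 (1.75) were higher. On that list 11 of 17 genes were higher and 2 lower. The call of Bak1 (0.27) on it was lost with Foxp3 cells alone (adjusted p = 0.104 by edgeR).

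Activated and tissue Treg genes were higher for all 20 listed, with a median of 2.05. They include Tnfrsf9 (4-1BB), a costimulatory receptor induced by T cell receptor signalling, at 61.6 to 97.3 CPM in Treg against 4.42 to 13.96 CPM (3.32 ± 0.11), and Maf, a transcription factor of IL-10-producing T cells (2.38). Those most tied to Treg of non-lymphoid tissue were rarer. Areg, an epithelial growth factor made by tissue Treg, reached 1.14 to 43.8 CPM in Treg and 0 to 3.21 CPM in other CD4 T cells (4.54 ± 0.34). Klrg1, a mark of terminally differentiated Treg, reached 1.71 to 17.3 CPM against 0 to 0.917 CPM (5.27 ± 0.52). Il1rl1, the receptor for interleukin 33, reached 1.44 to 16.9 CPM against 0.163 to 1.24 CPM (3.53 ± 0.32). Of the 14 NF-κB genes, which act downstream of TNF receptors, 13 were higher, among them Traf1 (1.16), Nfkb2 (0.98) and Rel (0.89), with a median of 0.66. The call of Nfkbid (0.27) was lost with Foxp3 cells alone (adjusted p = 0.261 by edgeR).

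Most homing genes were higher in Treg. In all 13 of the 20 listed were higher, among them Itgae (CD103, an integrin that binds E-cadherin on epithelium) by 4.75, Ccr6 by 3.99, Ccr8 by 2.98, Cxcr5 by 2.82, Ccr2 by 2.31, Cxcr6 by 1.69 and Cxcr3, the receptor for interferon-induced chemokines, by 1.49, with Gpr15, Ccr4 and 3 integrin genes. The other 7 were lower. They were S1pr1 (-0.79), the receptor that leads T cells out of tissue, its relative S1pr4 (-0.31), the chemoattractant receptors Gpr183 (-0.31) and Cxcr4 (-0.28), the adhesion genes Selplg (-0.20) and Itgb7 (-0.17), and Cd69 (-0.14), which holds T cells in tissue. Cxcr6 had 26.9, 56.6 and 94.7 CPM in the lowest, median and highest Treg sum and 6.90, 13.6 and 26.6 CPM in other CD4 T cells. Its excess lay in the cells that came in through Il2ra and Ikzf2, with 89.3 to 375 CPM, while the Foxp3 cells had 1.75 to 31.3 CPM. With Foxp3 cells alone as Treg its difference was -0.01 ± 0.17 and did not pass (adjusted p = 0.97 by edgeR), the only one of these 20 homing calls that was lost. Ccr6, in contrast, stayed at 3.88 ± 0.17.

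Genes of the naive and central memory state were lower in 11 of 12 cases, with a median of -0.74. Lef1 had 197 to 446 CPM in Treg against 626 to 994 CPM in other CD4 T cells (-1.70 ± 0.05), and Tcf7, its relative, 245 to 311 CPM against 435 to 557 CPM (-1.05). Ccr7, the chemokine receptor for entry into lymph nodes, was lower by less (-0.64), and its ranges in the 2 classes overlapped. The exception was Bcl2. Cytokine genes of conventional T cells were mixed, with 5 of 14 higher, 3 lower and a median of 0.46. Cd40lg, through which helper T cells activate B cells, was lower (-1.11), as were Gzmk (-1.96) and Ccl5 (-0.70), while Gzmb (2.94), Il17a (2.25) and Csf2 (4.39) were higher. Csf2 averaged 10.2 CPM in the cells without Foxp3 and 0.284 CPM in the Foxp3 cells, where it and Il17a were too low to be tested, and Gzmb was still higher there (2.88 ± 0.43).

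The cell cycle and p53 lists bear on the targets of the 2 drugs. Cell cycle genes were higher in 14 of 24 cases and lower in 2, with a median of 0.71. Mki67, a marker of dividing cells, was rare in both classes, at 1.44 to 22.2 CPM in Treg and 0.602 to 3.84 CPM in other CD4 T cells (2.32 ± 0.26). Wee1, the target of MK-1775, was higher by 1.12. Of 19 p53 target genes tested, 11 were higher and none lower. Cdkn1a (p21), the classical one, had 2.16, 6.52 and 27.6 CPM in Treg and 0.458, 0.798 and 14.9 CPM in other CD4 T cells (1.92 ± 0.25, adjusted p = 3.08e-07 by edgeR). Mdm2, the target of nutlin-3 and itself a p53 target, had medians of 52.0 and 50.9 CPM and did not pass (-0.15, adjusted p = 0.0864 by edgeR). The early response list was mixed (7 of 18 higher, 3 lower), and so was the interferon list (6 of 22 higher, 5 lower, median 0.01).

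Ranked by size among genes at 20 CPM or more that moved alike in all 8 libraries, the highest after Tnfrsf4, Ikzf4 and Gpr83 were Dusp4 (3.38), a phosphatase of MAP kinases, Penk (3.38), which encodes the opioid precursor proenkephalin, Tnfrsf9, Ctla4, Swap70 (3.18), Il2rb, Socs2, Fam129a (3.03) and Mdfic (3.00). The lowest were Pdlim4 (-2.53), Dapl1 (-2.37), Auts2 (-2.26), Igfbp4 (-2.21), Vipr1 (-2.18), the receptor for vasoactive intestinal peptide, and Tdrp (-1.90). They were followed by Pde3b (-1.87), Nsg2 (-1.76), Plaur (-1.73), Lef1, Sema4a (-1.67) and Prf1 (-1.59), which encodes perforin. Dapl1 had 29.6 to 114 CPM in Treg and 204 to 391 CPM in other CD4 T cells, with no overlap.

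**Figure D3:**
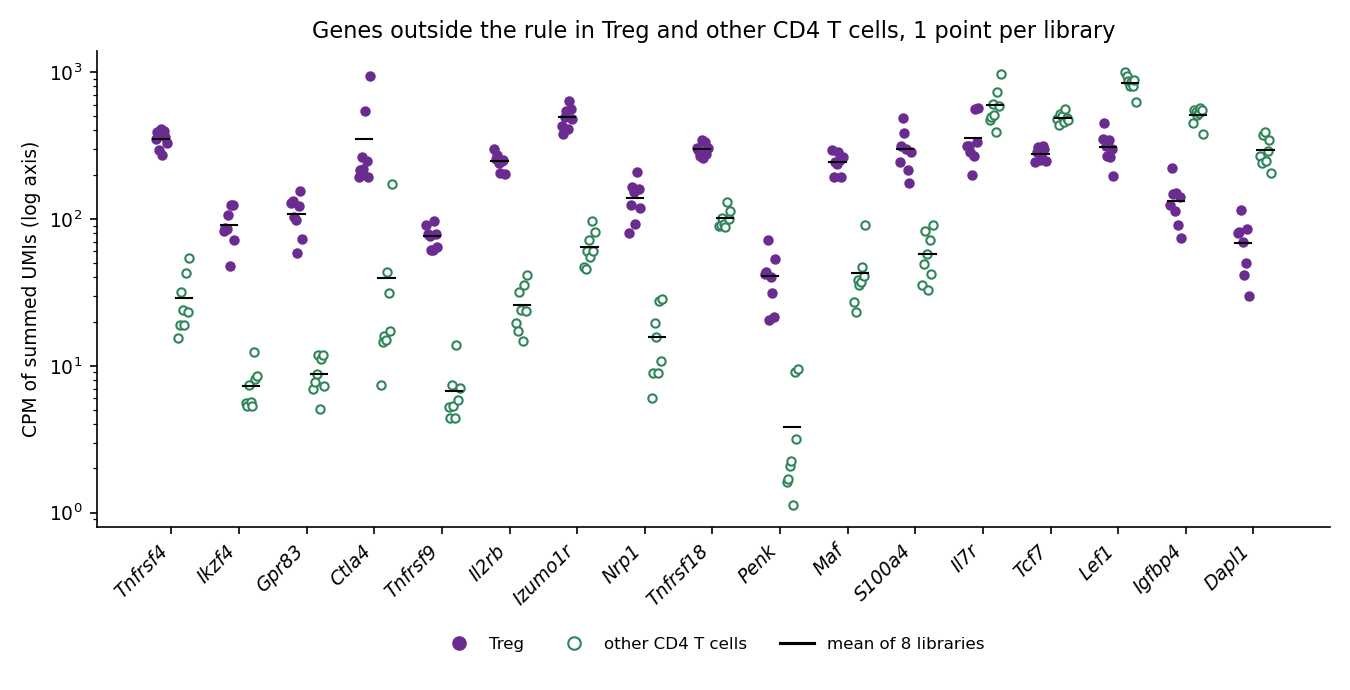
Levels of genes outside the rule in Treg and other CD4 T cells, in CPM of summed UMIs on a log axis, with 1 point per library. Tnfrsf4 lay at 274 to 411 CPM in the Treg of every library and at 15.4 to 54.4 CPM in other CD4 T cells, and Lef1 lay in the reverse order.

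Markers of other cells moved with these differences. The 10 B cell genes summed to 248 to 465 CPM in Treg and 112 to 217 CPM in other CD4 T cells, mostly Ighm. Of the 6 tested, 5 were higher in Treg, with a median of 2.02: Igkc (3.21), H2-Eb1 (3.20), Cd74 (2.25), Ighd (1.80) and Ighm (0.57). These 5 calls held with Foxp3 cells alone. The 10 myeloid genes summed to 159 to 194 and 115 to 139 CPM, mostly Cst3, with Adgre1, C1qb and Cd14 at 0 in Treg. The 15 pancreas genes summed to 34.6 to 383 CPM in Treg, highest in the vehicle library of day 3, and to 9.72 to 326 CPM in other CD4 T cells, highest in the PPCA library of day 3, with Gcg at 0 in both. The 8 genes of NK and innate lymphoid cells summed to 11.5 to 43.6 and 12.04 to 28.8 CPM, with none at 0. Of the 6 tested, 4 were higher in Treg and 1 lower, with a median of 2.28. With Foxp3 cells alone 2 of these calls held, 1 was lost and 2 could not be tested. The part of these cells in the differences was not tested. With only Foxp3 cells as Treg, and with the barcodes that scored highest as doublets left out (236 Treg), 4462 and 4887 genes differed. All 20 identity genes were higher in both. The calls of the 20 effector and the 11 resting genes were also the same with Foxp3 cells alone, while those of the γδ T cell genes Tcrg-C2 and Tcrg-C4 were lost (-0.61 and 0.19). The call of Trdc, which was lower in Treg (-0.58), was lost as well (-0.48, adjusted p = 0.0637 by edgeR), and Tcrg-C1 could not be tested there. Also lost was that of Fcer1g, a gene of NK and myeloid cells, at 2.94 with all Treg and 0.23 with Foxp3 cells (adjusted p = 0.871 by edgeR).

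The authors' deposited table of marker genes names a Treg cluster among 7. It lists Foxp3 as detected in 51.5% of that cluster, Ikzf2 in 72.7% and Ctla4 in 63.2%. Of the 567 genes the authors' deposited table gives for the cluster, 562 were tested here, 482 were higher in Treg than in other CD4 T cells (85.8% of those tested) and 8 were lower. They were 20.6% of the genes higher here. The cells behind the table and those here are from the same libraries, so this overlap is no independent support.

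PPCA changed few genes of Treg past the threshold. Interferon-stimulated genes and Il7r were higher and the mitotic genes Ccnb2 and Birc5 lower, while no p53 target on the list passed. With harvest day as a block, 9 of 8993 genes passed (0.1%), 5 higher (0.0556%) and 4 lower (0.0445%), against 567 at an unadjusted p under 0.05. DESeq2 called 10. With 2 residual degrees of freedom the test recovered 71.4% of genes changed 2-fold in simulated counts. Those counts had no day effect and gave genes of like abundance the same spread, so this recovery need not hold for these libraries. No gene passed without the day as a block (0 called, 270 at an unadjusted p under 0.05).

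Among the 5 higher genes, 3 were interferon-stimulated: Ifit1, which encodes a protein that binds foreign RNA, its relative Ifit3, and Rtp4. Ifit1 and Ifit3 have the motif of the factors that carry the interferon signal close to their start. The 250 bases before the start of each are shown because the PPCA result turns on these genes and both were lower on day 4. Capitals mark TTTCNNTTTC, which is GAAANNGAAA, the core of the interferon-stimulated response element, read on the other strand. The first base of each match lies at -104 and -85 in Ifit1 (chr19:34640639-34640888, plus strand) and at -156 and -122 in Ifit3 (chr19:34583279-34583528, plus strand), counted from the start.
Ifit1: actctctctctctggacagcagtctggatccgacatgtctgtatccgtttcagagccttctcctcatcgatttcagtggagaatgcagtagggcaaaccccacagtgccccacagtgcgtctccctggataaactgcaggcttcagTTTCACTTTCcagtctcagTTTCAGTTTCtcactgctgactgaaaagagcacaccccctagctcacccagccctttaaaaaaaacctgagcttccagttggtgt
Ifit3: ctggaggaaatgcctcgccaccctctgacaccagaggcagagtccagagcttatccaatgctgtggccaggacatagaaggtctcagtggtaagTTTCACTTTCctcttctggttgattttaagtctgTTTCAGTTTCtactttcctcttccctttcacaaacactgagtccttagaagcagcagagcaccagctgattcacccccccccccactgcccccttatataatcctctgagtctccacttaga
The sequences are from RefSeq on GRCm38.p6. Searched on both strands of 300 bases, from 250 before the start to 50 after, the motif was found in 1079 of 27025 genes (3.99%). It was found in 12 of the 16 interferon-stimulated genes that could be matched, of 22 listed. A match is a description of the letters and not evidence of binding. Rtp4 had no entry in the promoter table.

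Ifit1 had 19.1, 11.5 and 3.35 CPM in Treg with vehicle on days 2, 3 and 4 and 72.5, 39.7 and 6.74 CPM with PPCA. It was higher with PPCA on each day, and both groups were lowest on day 4, so that the groups overlapped. The difference was 1.72 ± 0.24 (log2 ± SE, adjusted p = 0.0273 by edgeR). Ifit3 had 4.94, 2.99 and 2.01 CPM with vehicle and 54.3, 22.4 and 0.674 CPM with PPCA (2.78 ± 0.46, adjusted p = 0.0364 by edgeR). It was higher on days 2 and 3 but lower on day 4, by 1.11 on the log2 scale, at very low counts. Ifit3 shares sequence with Ifit3b and Ifit1 with a near copy, so their counts are uncertain. Rtp4, with 14.8, 8.10 and 4.69 CPM against 51.8, 35.3 and 6.74 CPM, was higher on each day (1.69 ± 0.29, adjusted p = 0.0364 by edgeR). Isg15, which encodes a ubiquitin-like protein, followed the same pattern without passing: 40.2, 40.9 and 27.4 CPM against 166, 112 and 27.6 CPM (1.30, adjusted p = 0.0748 by edgeR).

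In the whole interferon list 3 of 19 genes passed and 15 of 19 values were positive, with a median of 0.43, against 0.00 for all genes. Several of these calls were lost under other settings, with log2 differences that stayed above 1. Without the day 2 pair Ifit1 was 1.5 (adjusted p = 0.229 by edgeR) and Rtp4 1.58 (adjusted p = 0.28), and without the day 3 pair Rtp4 was 1.47 (adjusted p = 0.0742). With the top-scoring doublets left out Ifit3 was 2.89 (adjusted p = 0.0777 by edgeR) and Rtp4 1.53 (adjusted p = 0.0931). With a factor for Y-linked transcripts Ifit3 was 2.09 (adjusted p = 0.118 by edgeR), and among Foxp3 cells alone Rtp4 was 1.67 (adjusted p = 0.0557). After thinning to 2000 UMIs Ifit3 was 2.30, Ifit1 1.42 and Rtp4 1.28, and none passed (adjusted p = 0.415, 0.54 and 0.617 by edgeR). The same genes had similar values in other CD4 T cells. There Ifit1 had 12.7, 8.14 and 5.997 CPM with vehicle and 88.0, 45.1 and 6.12 CPM with PPCA, a difference of 1.83 ± 0.46 that did not pass (adjusted p = 0.553 by edgeR). In other CD4 T cells 0 of 11853 genes passed (0.0%), with 848 at an unadjusted p under 0.05. For no interferon-stimulated gene did the PPCA difference in Treg differ from that in other CD4 T cells by the test of that difference (0 of 22, median -0.03).

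Il7r, the receptor for the survival cytokine interleukin 7, had 284, 198 and 269 CPM in Treg with vehicle and 559, 332 and 566 CPM with PPCA. The 2 groups did not overlap, and the difference was 0.90 ± 0.13 (adjusted p = 0.0273 by edgeR). Among Foxp3 cells alone it was 0.92 (adjusted p = 0.0647 by edgeR). Treg normally carry less of this receptor than other CD4 T cells, and did so in 8 of 8 libraries here (-0.997 ± 0.067, Treg against other CD4 T cells). In other CD4 T cells Il7r had 610, 511 and 388 CPM with vehicle and 728, 583 and 970 CPM with PPCA (0.50, adjusted p = 0.719 by edgeR). The difference between the 2 classes in this response was 0.39 ± 0.09 (adjusted p = 0.0399 by edgeR). By day it was 0.76, 0.62 and -0.21, so that on day 4 it had the opposite sign.

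**Figure D4:**
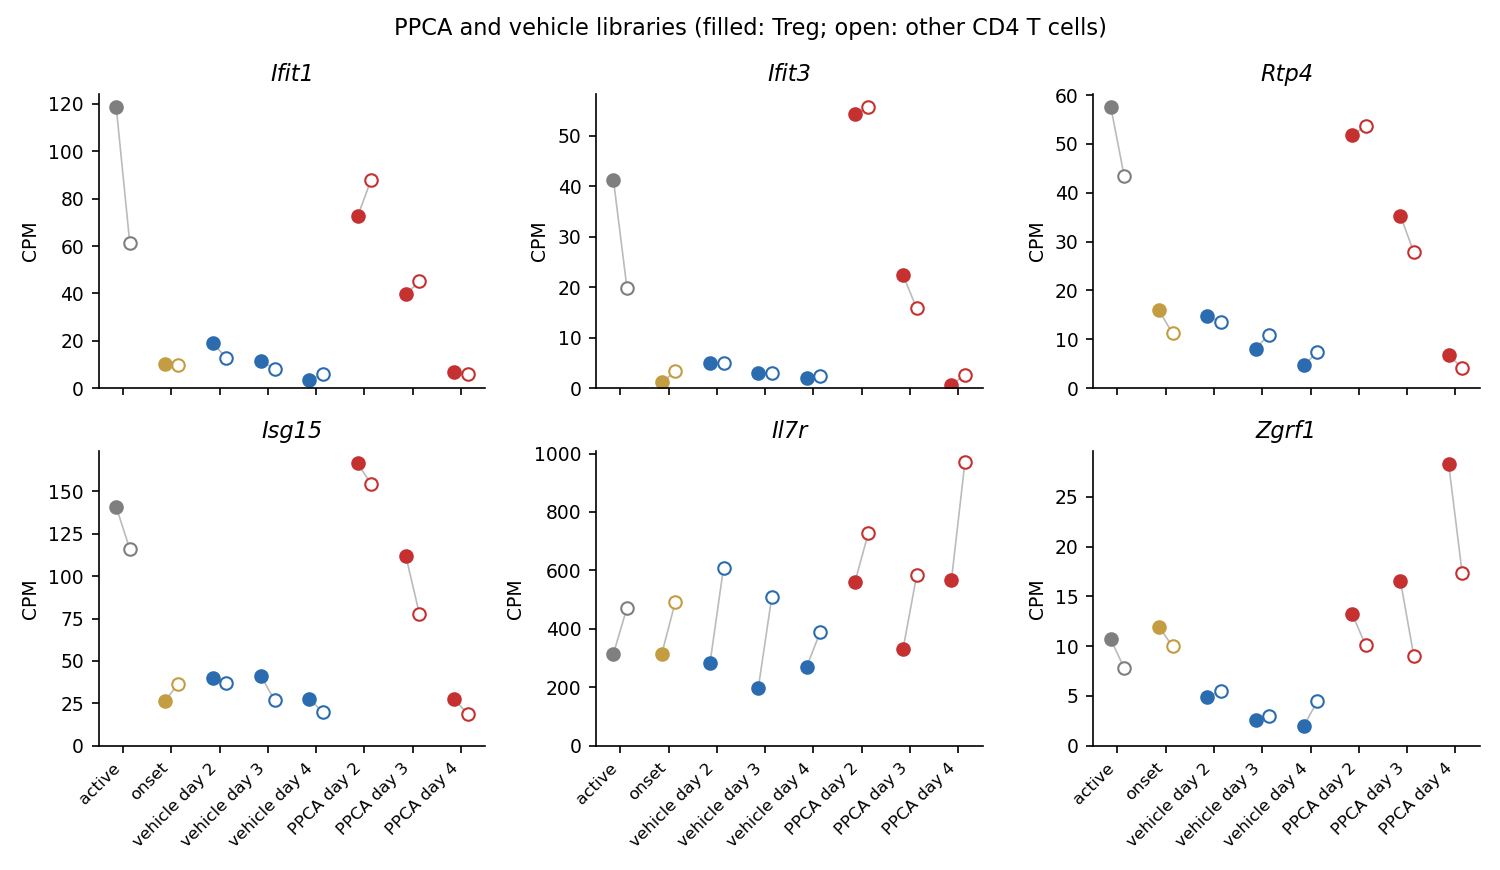
Levels of 6 genes in Treg (filled) and other CD4 T cells (open) of each library, in CPM of summed UMIs. Ifit1, Ifit3, Rtp4 and Isg15 were high in the active library and the PPCA libraries of days 2 and 3 and low on day 4, and Il7r of Treg was higher with PPCA (332 to 566 CPM) than with vehicle (198 to 284 CPM).

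The mitotic genes rested on a handful of cells. Ccnb2, the mitotic cyclin B2, had 39 UMIs in the Treg of the vehicle libraries together and 0 in those of the PPCA libraries. That is at least 13.1-fold lower with PPCA, at a floor of 3 counts over the group. Birc5 (survivin), which acts at the spindle, had 56 and 2 UMIs, a ratio of 28.2 (95% counting interval 7.44 to 238). Mki67 had 88 and 25 UMIs, a ratio of 3.54 (2.25 to 5.76), and its difference did not pass (-1.88 ± 0.42, adjusted p = 0.154 by edgeR). The vehicle UMIs of Ccnb2 came from 1, 3 and 2 cells and those of Birc5 from 2, 4 and 3 cells on days 2, 3 and 4. The call of Ccnb2 was lost with the top-scoring doublets left out (adjusted p = 0.0777 by edgeR) and that of Birc5 without the day 4 pair (-3.41, adjusted p = 0.109). For Birc5 no value with Foxp3 cells alone was available. These intervals count UMIs as independent, which those of 1 cell are not. Of 16 cell cycle genes tested, 2 were lower, none higher and all 16 values negative, with a median of -0.43. In other CD4 T cells all 22 values tested were negative too (median -0.21), and none passed.

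The p53 targets of Treg did not separate the 2 groups. Cdkn1a had 7.06, 3.84 and 22.8 CPM with vehicle and 6.21, 2.16 and 27.6 CPM with PPCA (-0.02, adjusted p = 0.995 by edgeR). Mdm2 had 67.0, 41.0 and 42.8 CPM against 52.2, 54.1 and 66.7 CPM (0.17, adjusted p = 0.924 by edgeR). Of 17 p53 targets tested 0 passed, with a median of 0.02. Of the 20 identity genes 0 passed, with a median of 0.14, and Ctla4 stood at 0.16. As values that chose the cells, Foxp3 differed by 0.00, Ikzf2 by 0.01 and Il2ra by -0.21.

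A further 3 called genes fell outside the rule for naming and were chosen after their values were seen. Zgrf1, a DNA repair helicase gene, had 4.94, 2.56 and 2.01 CPM with vehicle and 13.3, 16.6 and 28.3 CPM with PPCA (2.52 ± 0.42). The mitochondrial gene mt-Co3 was lower by 0.75 and the ribosomal protein gene Rps15, which has processed copies, by 0.66. Beside mt-Co3, the median share of mitochondrial UMIs per Treg averaged 3.18% with vehicle and 2.45% with PPCA. Its part in the call was not tested. Genes at 50 CPM or more that moved alike on all 3 days without passing included Gstp1 (0.84), Tmem106b (0.81) and Rsrp1 (0.72) among the higher. The lower included the galectin gene Lgals1 (-0.92), S100a4 (-0.84), Egln1 (-0.81), S100a6 (-0.76) and Lars2 (-0.67). Lgals1 had 229, 278 and 299 CPM with vehicle and 191, 124 and 125 CPM with PPCA, with no overlap (adjusted p = 0.0748 by edgeR).

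The response to PPCA differed between Treg and other CD4 T cells for a small set of genes, most of them with a lower difference in Treg than in other CD4 T cells. The test of the difference called 41 of 11883 genes (0.345%), 7 higher and 34 lower in Treg. DESeq2 called 5. Among the lower were 4 of 20 identity genes, 2 of 20 activated and tissue Treg genes, 3 of 14 cytokine and effector genes of conventional T cells and 3 of 14 IL-2 and STAT5 genes. Ccl5, a chemokine of effector and memory T cells, had 202, 54.2 and 50.9 CPM in Treg with vehicle and 94.0, 26.0 and 98.4 CPM with PPCA. In other CD4 T cells it had 109, 77.5 and 53.2 CPM and 126, 91.6 and 391 CPM. The difference of the 2 differences was -1.45 ± 0.12 (adjusted p = 6.7e-11 by edgeR), and the highest value in other CD4 T cells was that of the PPCA library of day 4.

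Ctla4 showed how such a value arises. Treg had 265, 218 and 542 CPM with vehicle and 247, 194 and 946 CPM with PPCA, and other CD4 T cells 15.98, 15.1 and 43.3 CPM and 31.4, 17.2 and 172 CPM. It was higher with PPCA in other CD4 T cells on each day, in Treg only on day 4, and always highest in Treg (-0.92 ± 0.10, adjusted p = 4.97e-08 by edgeR). S100a4 and S100a6, calcium-binding proteins of activated T cells, had PPCA differences of -0.84 and -0.76 in Treg and 0.18 and 0.39 in other CD4 T cells, none of them past the threshold alone, and the differences between the classes were -1.04 ± 0.10 and -1.12 ± 0.14. Further called genes were Penk (-2.28), Neb (-2.12), Socs2 (-1.52), Nkg7 (-1.13), Lag3 (-1.11, lost with Foxp3 cells alone), Maf (-0.71) and Icos (-0.57). Genes of other cells were also called lower: the γδ T cell genes Tcrg-C2 (-2.60) and Trgv2 (-2.36), and Sycn (-2.34), a gene of acinar cells. Trgv2 and Sycn were chosen after their values were seen. The call of Tcrg-C2 was lost with Foxp3 cells alone, and its sign turned after thinning (0.56) and with a Cd4 UMI required (5.14). The median was -1.60 over the 4 γδ T cell genes tested and -1.31 over the 11 pancreas genes, and the part of these cells in the class difference was not tested. Among the 7 higher were Sik1 (0.56), Jun (0.43), Dusp1 (0.43), Fos (0.42) and Tnfaip3 (0.36), all early response or feedback genes, and Il7r. By day, Jun was 1.32, 0.35 and -0.05, Fos 1.13, 0.19 and 0.20, and Dusp1 0.96, 0.21 and 0.28, so that day 2 was highest and Jun had the opposite sign on day 4. The calls of these early response and feedback genes were all lost without the day 2 pair.

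On the identity list 4 of 20 genes passed, all lower, and 18 of 20 values were negative, with a median of -0.43, against 0.01 for all genes. Beside this stands a value from the other side: with PPCA, 19 of 20 identity genes were higher in other CD4 T cells (median 0.53, none past the threshold). Ikzf2 in other CD4 T cells, which the rule allows there when Foxp3 and Il2ra are not seen, was at 27.1, 30.5 and 17.4 CPM with vehicle and 46.0, 23.9 and 41.2 CPM with PPCA. Treg missed at the lower depth of PPCA libraries would lie among those cells, and their part in these values was not tested. Ccl5, Neb, Ctla4 and S100a4 passed in every alternative run, thinning to 2000 UMIs and at least 2 Foxp3 UMIs included.

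The 2 libraries harvested on day 4 were set against the 4 of days 2 and 3. On day 4 Treg of both arms had more of most early response genes and of Tnfaip3, Il10 and Ctla4, and fewer interferon-stimulated transcripts, than on days 2 and 3. With treatment as a block, 576 of 8993 genes passed (6.4%), 425 higher (4.73%) and 151 lower (1.68%). DESeq2 called 206. Day 4 is 1 vehicle and 1 PPCA library, so the day and anything else that these 2 libraries share cannot be told apart.

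Of the 16 early response genes tested, 11 were higher and 1 lower (Egr3), with a median of 1.20, against -0.01 for all genes. Tnfaip3 (A20), which ends NF-κB signalling, had 130 and 145 CPM with vehicle on days 2 and 3 and 112 and 108 CPM with PPCA. On day 4 it had 827 and 1372 CPM, and 77.4 and 167 CPM in the active and onset libraries (3.26 ± 0.19, adjusted p = 3.81e-07 by edgeR). The day 4 pair stood far above the other 6. Of the 14 NF-κB genes 5 were higher and none lower, the others being Nfkbia (1.85), Rel (1.07), Birc3 (0.90) and Traf1 (0.50, lost with Foxp3 cells alone), and 9 did not pass. Jun, part of the AP-1 factor, had 511, 654, 166 and 544 CPM on the earlier days and 1212 and 1485 CPM on day 4 (1.82 ± 0.24). Fos (1.95), Junb (1.75), Dusp1 (1.89), Nr4a2 (2.95) and Cd69 (1.57), an early activation receptor, were also higher.

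Il10 stood out among the suppressive genes. It had 7.76 and 2.13 CPM with vehicle and 1.66 and 0.721 CPM with PPCA on days 2 and 3, and 42.2 and 38.4 CPM on day 4 (4.11 ± 0.38, adjusted p = 1.39e-05 by edgeR). On day 4 a UMI of Il10 was found in 20 of 289 Treg with vehicle and 21 of 386 with PPCA, and in at most 4 Treg in each of the earlier treated libraries. Ctla4 went from 194 to 265 CPM on the earlier days to 542 and 946 CPM (1.80 ± 0.18). In contrast Ikzf4 (-0.77), Gpr83 (-0.71) and Nrp1 (-0.57, lost with Foxp3 cells alone) were lower, and 2 of 20 identity genes passed upwards and 3 downwards (median -0.13). The identity list thus did not move as one. Pdcd1 (PD-1) was lower by 0.99, and Ccr7 (1.13) and Klf2 (1.43), genes of recirculating cells, were higher.

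On day 4, 9 of the 19 interferon-stimulated genes were lower and none higher, with a median of -0.83 and all 19 values negative. They included Ifit3 (-3.54), Ifit1 (-2.58), Rtp4 (-2.00), Isg15 (-1.41), a ubiquitin-like protein, and Igtp (-1.35). On days 2 and 3 Isg15 had 40.2 and 40.9 CPM with vehicle and 166 and 112 CPM with PPCA, and on day 4 it had 27.4 CPM with vehicle and 27.6 CPM with PPCA, below each of the earlier libraries. Of the 17 p53 targets 7 were higher and 1 lower, with a median of 0.18. Cdkn1a had 2.16 to 7.06 CPM on the earlier days and 22.8 and 27.6 CPM on day 4, a rise seen with vehicle as with PPCA (2.56 ± 0.33, adjusted p = 0.000247 by edgeR). Plk2 (2.76), Gadd45a (1.58), Bbc3 (1.37) and Pmaip1 (1.13) were higher with it, Ccng1 was lower (-0.81) and Mdm2 did not pass (0.18, adjusted p = 0.688 by edgeR).

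Among the other genes named by size were Klf4 (3.20), Gem (3.00), Ppp1r15a (2.90), Bhlhe40 (2.81), Frat2 (2.74), Rgs2 (2.72), Dusp5 (2.63) and Dnajb9 (2.61). Ppp1r15a and Dnajb9 are genes of the integrated and unfolded protein stress responses. The lower included Mfsd11 (-1.79), Ddit4 (-1.68), an inhibitor of mTORC1, Clec2d (-1.61), Zfp738 (-1.50), Tnfaip8l2 (-1.49), Armc7 (-1.26) and Slfn1 (-1.25), a gene of T cell quiescence. The cell cycle list had 2 of 16 higher and 1 lower.

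**Figure D5:**
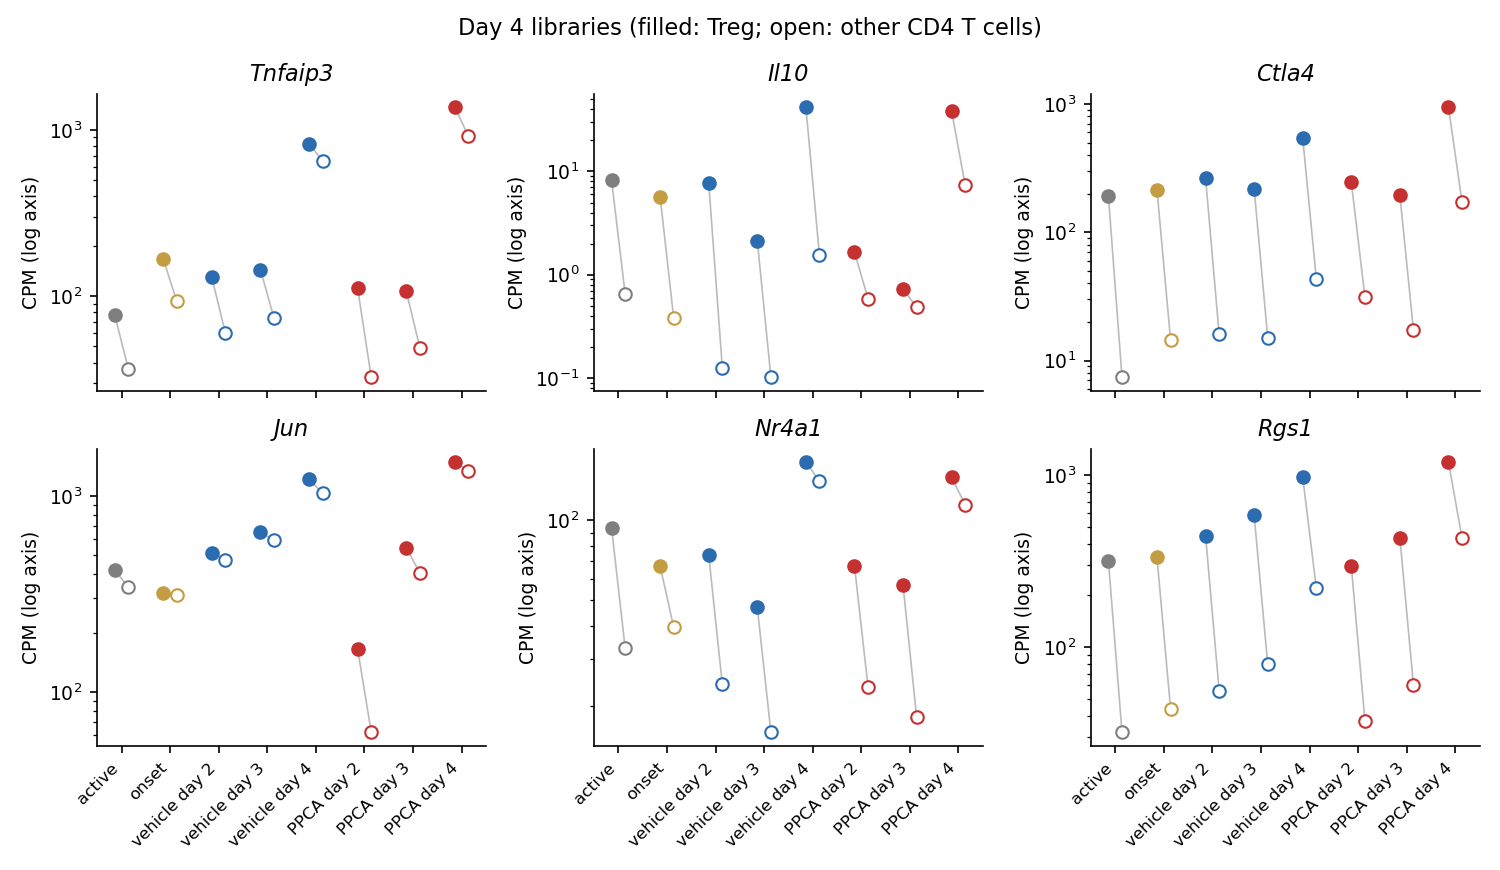
Levels of 6 genes in Treg (filled) and other CD4 T cells (open) of each library, in CPM of summed UMIs on a log axis. The vehicle and PPCA libraries of day 4 were both above the other libraries for Tnfaip3 (827 and 1372 CPM in Treg) and for Il10 (42.2 and 38.4 CPM in Treg).

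The day 4 pattern was not confined to Treg. In other CD4 T cells 1726 of 11853 genes passed (14.6%), 1039 higher (8.77%) and 687 lower (5.8%), among them Tnfaip3 (4.09 ± 0.26), Il10 (3.90) and Ctla4 (2.37). A test of the difference between the 2 classes, added after the values were seen, called 39 of 11883 genes (0.328%), 6 higher and 33 lower in Treg. DESeq2 called 13. Nr4a1, a direct report of T cell receptor signalling, had 74.1, 46.9, 67.5 and 57.0 CPM in Treg on the earlier days and 166 and 146 CPM on day 4. Other CD4 T cells had 24.0, 15.9, 23.5 and 18.1 CPM and then 141 and 114 CPM. Treg thus began higher and rose by a smaller fold (log2 difference -1.33 ± 0.12, adjusted p = 2.2e-10 by edgeR). Rgs1, a brake on chemokine receptors, did likewise (-1.14 ± 0.09), as did Klf9 (-1.17) and Tnfaip3 (-0.84). The calls of Klf9, Neb and Ctla2a were lost with Foxp3 cells alone. Tnfsf8 (CD30 ligand, 0.94), Sgk1 (0.87) and Ccr7 (0.50) rose by a larger fold in Treg. Neb (-0.96) and Ctla2a (-0.94) were also called.

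The active and onset libraries were compared without a test, since there was 1 of each. Treg of the active library had more interferon-stimulated transcripts and those of the onset library more of a few chemokines, each from few cells or in part from the cells without Foxp3. Of 7381 genes with at least 20 UMIs in the higher library, 180 were at least 2-fold higher in the active library (2.44%) and 117 at least 2-fold lower (1.59%). Ifit1 had 144 UMIs (119 CPM) in active and 18 (10.2 CPM) in onset, a log2 ratio of 3.53, and Isg15 171 and 46 UMIs (2.43). In the Foxp3 cells alone Ifit1 had 99 and 13 UMIs. Ifit3 had 50 and 2 UMIs, a ratio of 36.2 (95% counting interval 9.51 to 307). In all, 9 of 18 interferon-stimulated genes were at least 2-fold higher and none lower, with a median log2 ratio of 1.01, against 0.03 for all genes. Cenpb (2.15) and Rtp4 (1.86) completed the 5 highest among genes with at least 50 UMIs in the higher library.

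Chemokines were 3 of the 5 lowest at the same minimum of 50 UMIs. Below it, Il2 had 1 UMI in active and 24 in onset. Ccl1, a ligand of CCR8, had 0 UMIs in active and 110 in onset, at least 25.3-fold lower at a floor of 3 counts, but the 110 UMIs came from 4 of 343 Treg. Xcl1 had 26 and 212 UMIs, from 6 cells each (-2.49). Of these, 25 and 210 lay in the Il2ra and Ikzf2 cells, which also held 13 and 9 UMIs of the NK cell gene Ncr1, and 1 and 2 in the Foxp3 cells. Ifitm2 (-2.00) and the heat shock gene Hsph1 (-1.69) came next in rank. After them Ccl4 had 23 and 103 UMIs (-1.63), of which 22 and 44 lay in the Foxp3 cells. Among tissue Treg genes 2 were higher in the active library: Areg with 21 and 2 UMIs from 3 and 2 cells (ratio 15.2, interval 3.71 to 134) and Klrg1 with 21 and 3 from 6 and 2 cells (ratio 10.1, interval 3.02 to 53.04). None of the 17 identity genes measured was 2-fold apart. Further, 4 of 13 cell cycle genes were 2-fold higher in active, and 3 of 17 early response genes 2-fold lower. Among the 4, Mki67 had 27 and 11 UMIs and Top2a 24 and 7, but in the Foxp3 cells Mki67 had 6 and 9 and Top2a 4 and 7. The γδ T cell genes of Treg summed to 60.1 CPM in the active and 21.6 CPM in the onset library, and their part in these differences was not tested. Intervals cover counting error of UMIs only, which are not independent within a cell, and describe 2 libraries, not the disease stages.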

How the data were processed

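Gene expression was measured in single cells of 8 libraries with a 10x Genomics 3′ kit, per the labels. The matrices were deposited as raw UMI counts for 32285 features. The authors made them with Cell Ranger, version 6.0.0 per the file headers and 6.1.2 per the submitters' processing notes, which also name Seurat. The reference genome is not given in the sources used here. For 7 clusters, the authors' deposited marker table lists p-values, log2 fold changes and, per gene, a fraction of cells. The members and the gene lists were chosen with earlier results of these data known.

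UMIs were summed per library over Treg and over other CD4 T cells and tested by quasi-likelihood in edgeR 4.0.16 (R 4.3.3), using TMM scaling, filterByExpr and Benjamini-Hochberg adjustment at 0.05. Library was the block between cell classes. Harvest day was the block between PPCA and vehicle, and class by day for differences of differences. The 3 same-day pairs of libraries had deviations from their arm means that correlated across genes at 0.207, 0.22 and 0.413 in Treg, and day, which the sample names give, was taken to pair the libraries. The pair of vehicle day 2 with PPCA day 3 correlated as highly (0.208). CPM are UMIs per 1000000 UMIs of the summed cells, and the errors ± in log2 are standard errors. Doublets were scored with Scrublet in scanpy 1.11.5 and left out only as an alternative. The fits were tested on simulated counts.

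Named genes were listed genes that passed, the 12 highest and 12 lowest past the threshold at 20 CPM or more and alike in 8 libraries, up to 10 each way for the other fits, and Foxp3, Il2ra, Ikzf2, Cdkn1a, Mdm2 and Mki67 in any case. Where fewer than 5 passed, the 5 highest and 5 lowest at 50 CPM that moved alike on 3 days were given as values. T cell receptor, immunoglobulin, ribosomal, mitochondrial and unnamed genes were not named by rank. Alternatives were DESeq2 1.42.0, its size factors, no low-count filter, other membership, thinning, doublets, left-out libraries, a factor for Y-linked transcripts and no block. Those with at least 2 Foxp3 UMIs, CD8-negative denominators and Y-linked libraries only, and all for the day 4 difference between classes, were added after seeing the data.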

Additional observations from a re-analysis of the deposited data

Results flagged for a closer look

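The response to PPCA differed between Treg and other CD4 T cells for 41 genes by the interaction term of edgeR, with log2 values of Treg minus other CD4 T cells of -2.28 for Penk, -2.12 for Neb, -1.52 for Socs2, -1.45 for Ccl5 and -1.13 for Nkg7, and of 0.56 for Sik1, 0.43 for Jun and 0.43 for Dusp1. By day Jun was 1.32, 0.35 and -0.05 and Dusp1 0.96, 0.21 and 0.28, and both calls were lost without the day 2 pair. DESeq2 called 5 genes in this comparison.

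The difference of day 4 from days 2 and 3 differed between the same classes for 39 genes by an interaction term added after seeing the data. The values were -1.33 for Nr4a1, -1.17 for Klf9, -1.14 for Rgs1, -0.96 for Neb, -0.94 for Ctla2a, 0.94 for Tnfsf8, 0.87 for Sgk1 and 0.50 for Ccr7. The cause was not tested.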

How the results depend on the processing

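Between Treg and other CD4 T cells, the 26 genes that passed among those named (the 12 highest and 12 lowest, picked in part for moving alike in all 8 libraries, Cdkn1a and Mki67) kept their direction and call in 518 of 520 checks. The 6 called and named with PPCA in Treg did so in 43 of 60, with a DESeq2 value for Il7r alone. Each of the 6 lost its call at least once. For the class difference in PPCA response it was 239 of 338 over 26 genes, with 3 signs turned and 4 genes that held throughout, for day 4 672 of 767 over 70 genes, and for the class difference on day 4 204 of 268 over 25 genes. None of the 3 interferon-stimulated genes called with PPCA passed after thinning, and Ifit1 and Rtp4 did not without day 2. The mitotic genes had few UMIs. The cause of the changes below was not tested. The count of genes between Treg and other CD4 T cells (4862) was 2783 after thinning, 3073 with the rule on one part of the UMIs and expression from the other, and 2390 without the replicate block. For PPCA in Treg (9) it was 74 with no low-count filter, 29 with a Cd4 UMI required, 14 after thinning, 5 without top-scoring doublets, 28 with a factor for Y-linked transcripts, 22 with at least 2 Foxp3 UMIs and 10 to 53 without one replicate. For the class difference in PPCA response (41) it was 5 by DESeq2, 63 with no filter, 77 with a Cd4 UMI, 22 thinned, 68 with the Y-linked factor, 27 with at least 2 Foxp3 UMIs and 41 to 66 without one replicate. For day 4 (576) it was 206 by DESeq2, 358 thinned, 280 with at least 2 Foxp3 UMIs and 456 to 603 without one replicate. For the class difference on day 4 (39) it was 13 by DESeq2, 59 with no filter, 14 thinned, 68 with the Y-linked factor and 23 to 30 without one replicate. At 50 UMIs, 81 genes were 2-fold apart between active and onset, against 297 at 20.

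The share difference was -0.0461 points for at least 2 Foxp3 UMIs, and 2.64 to 5.81 points without one replicate. Without the replicate block (harvest day unpaired) 0 genes passed for PPCA and 28 for the class difference, and Cdkn1a was 0.102.

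Signs turned for genes that did not pass, and for some that did, Hmgb2, Tcrg-C2, Ccl5 and Cxcr6. With Foxp3 cells alone as Treg, Cxcr6 against other CD4 T cells was -0.0119 and Tcrg-C2 -0.612. Mdm2 against other CD4 T cells was 0.0293 thinned and 0.0286 in Y-linked libraries only. Cdkn1a with PPCA was 0.365 thinned, 0.0926 without doublets and -0.43 to 0.116 without one replicate, and Mdm2 -0.085 with a Cd4 UMI and -0.059 to 0.447 without one replicate. Between classes, the PPCA value of Mdm2 was -0.24 with a Cd4 UMI, -0.0584 with Foxp3 cells, -0.133 with at least 2 Foxp3 UMIs and -0.191 to 0.269 without one replicate. Thinned, Hmgb2 was 0.00328, Mki67 0.34 and Tcrg-C2 0.556, and with a Cd4 UMI Tcrg-C2 was 5.14. The day 4 class difference of Ccl5 was -1.32 to 0.197 without one replicate.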
